A study of Mus musculus with 30 samples.

Results

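The T cell receptor complex and its coreceptors were followed in spleen and lymph node of mice that carry an HIV-1 provirus and of their background strain. The members were listed by name: the CD3 chains Cd3e, Cd3d and Cd3g, the zeta chain Cd247, the coreceptors Cd4, Cd8a and Cd8b1, and the signalling proteins Zap70, Lat and Themis. All 10 of 10 were measured, out of 19938 genes in all, each by 1 probe set with a single gene symbol in the platform annotation. The study's question was which genes and pathways accompany B cell lymphoma in this strain. Total RNA was hybridised to Affymetrix Mouse Gene 1.0 ST arrays, 30 in all, 1 per tissue and mouse. The lymphoma group held 6 heterozygous Tg26 mice with lymphoma, the asymptomatic group held 6 heterozygous Tg26 mice without it, and the control group held 3 FVB/N mice. Tg26 mice carry a pNL4-3 HIV-1 provirus from which part of gag-pol is missing, so no infectious virus is made. All mice had the FVB/N background and were killed at 5 to 12 months, with no age given per mouse. Per the labels, the colony that develops lymphoma came from crosses of heterozygotes that had skin lesions. Mice 1 to 3 of every group carry the label batch A, and mice 4 to 6 of the transgenic groups carry the label batch B, which has no FVB/N animal.

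The T cell receptor recognises a peptide held by an MHC molecule but has almost no cytoplasmic tail of its own. The CD3 chains and the zeta chain carry the signal into the cell, where the kinase Zap70 docks on them and phosphorylates the adaptor Lat, on which further signalling proteins assemble. Cd4 binds MHC class II and marks helper and regulatory T cells. Cd8a and Cd8b1 bind MHC class I and mark cytotoxic T cells. Spleen and lymph node hold both kinds, together with B cells and myeloid cells.

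On GRCm38.p6, the annotated genes lie as follows. The CD3 genes are on chromosome 9, with Cd3e at chr9:44998735-45009663, Cd3d at chr9:44981769-44987052 and Cd3g at chr9:44969572-44980431. The coreceptor genes are on chromosome 6, with Cd4 at chr6:124864693-124888247, Cd8a at chr6:71373427-71379171 and Cd8b1 at chr6:71322788-71337492. Chromosome 1 holds Cd247 at chr1:165779952-165871153 and Zap70 at chr1:36761798-36782821, and the remaining genes are Lat at chr7:126363827-126369705 and Themis at chr10:28668360-28883820. Cd3d and Cd3g lie head to head on chromosome 9, and the transcript starts behind their windows are 1355 bases apart, that of Cd3d lying inside the annotated gene, and Cd3e is their neighbour. The sequences before these 3 genes and before Cd8a are shown as those of 3 adjoining genes of the complex and of the coreceptor for which the table had a window. They come from RefSeq on GRCm38.p6, which had windows of 250 bases before the start for 8 of the 10 genes. Each is printed 5′ to 3′ on the gene's own strand, up to the edge of the annotated gene. Capitals mark the core of the ETS family, GGAA or its reverse complement TTCC, and the core of TCF1 and LEF1, CTTTGA or its reverse complement TCAAAG.
Cd3e, chr9:45009664-45009861, minus strand: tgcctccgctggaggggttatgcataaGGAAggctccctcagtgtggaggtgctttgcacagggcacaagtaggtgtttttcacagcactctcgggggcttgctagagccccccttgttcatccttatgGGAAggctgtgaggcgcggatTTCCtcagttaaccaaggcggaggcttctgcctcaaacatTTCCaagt
Cd3d, chr9:44981536-44981768, plus strand: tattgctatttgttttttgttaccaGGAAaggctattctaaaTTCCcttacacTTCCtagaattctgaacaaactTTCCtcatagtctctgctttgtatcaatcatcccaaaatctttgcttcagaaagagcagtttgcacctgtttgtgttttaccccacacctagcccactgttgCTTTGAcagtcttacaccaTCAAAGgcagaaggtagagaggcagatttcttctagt
Cd3g, chr9:44980432-44980681, minus strand: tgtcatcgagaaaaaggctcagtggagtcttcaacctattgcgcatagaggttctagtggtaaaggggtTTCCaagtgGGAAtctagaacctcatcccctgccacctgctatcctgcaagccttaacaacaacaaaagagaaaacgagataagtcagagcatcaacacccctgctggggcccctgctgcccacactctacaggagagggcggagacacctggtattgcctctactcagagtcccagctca
Cd8a, chr6:71373177-71373426, plus strand: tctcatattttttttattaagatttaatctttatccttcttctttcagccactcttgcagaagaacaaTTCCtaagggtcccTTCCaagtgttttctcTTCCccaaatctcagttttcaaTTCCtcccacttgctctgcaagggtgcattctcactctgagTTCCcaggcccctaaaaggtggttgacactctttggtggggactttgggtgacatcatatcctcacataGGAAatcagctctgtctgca
The printed stretches held 4 ETS cores before Cd3e, 4 before Cd3d, 2 before Cd3g and 6 before Cd8a. Those of Cd3e and Cd3d are shorter than 250 bases, and their whole windows held 5 and 6. The windows of Cd247, Zap70, Lat and Themis, which are not shown, held between 0 and 8. An ETS core was in 93.4% of all 32851 windows of 250 bases in the table, with 2.91 per window on average, so most windows hold one. The TCF1 and LEF1 core occurred 2 times before Cd3d, 1 time in a window of Zap70, and in 13.8% of all windows. These matches are letters in a window and say nothing of binding. Ets1, of the ETS family and on the list of T cell transcription factors, was lower in lymphoma than in asymptomatic spleens. Its levels were 8.33, 9.05 and 9.64 with lymphoma (lowest, median and highest of 6) against 9.97, 10.35 and 10.56 without. It fell by a fitted 0.99 log2 units (SE 0.18, limma adjusted p = 0.000286). Erg, also of the ETS family and on the B cell precursor list, was called higher with lymphoma in both tissues. Whether either bears on the fall of the members was not tested.

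Arrays were checked against their labels before any comparison. Levels are the deposited log2 values. No 2 arrays were identical. In mice without lymphoma, every one of the 10 genes was at 7.57 or above in both tissues, beside array medians of 6.67 to 6.89. The constant genes of the receptor itself, 7 listed, are named by no single-symbol probe set and were not analysed here. One array stood against a label: for mouse 4 of the lymphoma group, the spleen array has the disease status value of FVB/N, although lymphoma stands in its title and in its description. Its mean over the B cell precursor list was 9.57, at the low end of the lymphoma spleens (9.57 to 10.17) and above the FVB/N spleens (7.18 to 7.34). It was kept as lymphoma, and results without that mouse are given. Of the 9 lymph nodes without lymphoma, 7 stood apart because lists of genes of neighbouring tissues averaged more than 1.5 log2 units above the median array. The mean over the salivary gland list reached 8.64 in asymptomatic nodes and 10.72 in FVB/N nodes, that over the exocrine pancreas list 13.24 and 6.05, and that over the adipose and muscle list 9.56 and 8.44. In lymphoma nodes the highest means of these lists were 6.81, 6.17 and 6.52. Node results are therefore also given without those 7 arrays. Of the spleens, asymptomatic mice 4 and 5 had pancreas list means of 7.28 and 8.26.

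With lymphoma, all 10 genes fell in both tissues. In spleen the fitted difference from asymptomatic mice lay between -3.3 (Cd3g) and -1.63 (Cd247) log2 units, which is 9.84-fold to 3.1-fold lower, and the largest limma adjusted p was 4.25e-06. In lymph node it lay between -3.92 (Cd3g) and -1.98 (Cd247), which is 15.1-fold to 3.94-fold lower, with adjusted p up to 9.91e-07. Over all genes, 7.25% were called lower in spleen and 12.5% in node at an adjusted p under 0.05. The lymphoma and asymptomatic arrays did not overlap for any of the 10 genes in either tissue, a separation in the lower direction shown by 4.96% of all genes in spleen and 5.81% in node. The median of the 10 fitted differences was -2.66 in spleen and -3.11 in node, beside -0.03 and -0.02 over all genes. In bulk tissue, fewer T cells, their dilution by other cells and less of a transcript per T cell cannot be told apart.

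**Figure D1:**
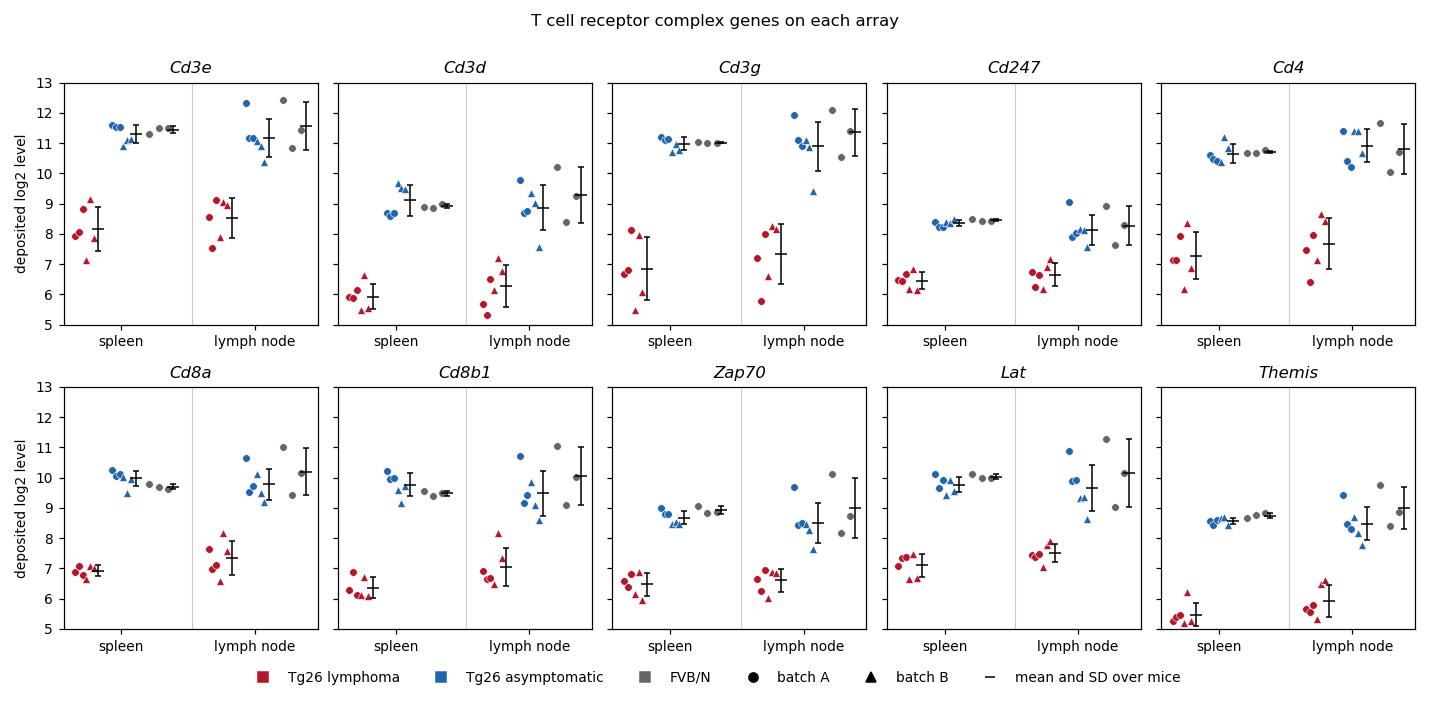
Deposited log2 level (vertical axis) of each of the 10 genes on each of the 30 arrays, by tissue and group, with circles for batch A and triangles for batch B. Black marks give the mean and SD over mice (n = 6 for lymphoma, 6 for asymptomatic and 3 for FVB/N). The red lymphoma points lie below all other points of their tissue in every panel.

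Among the CD3 chains, Cd3e, which is needed for the complex to reach the cell surface, had levels of 7.14, 8 and 9.17 in lymphoma spleens (lowest, median and highest of 6), against 10.92, 11.33 and 11.59 in asymptomatic spleens. The 3 FVB/N spleens were at 11.31, 11.5 and 11.51. The highest lymphoma spleen was thus far below the lowest spleen of the other groups, and the fitted difference from asymptomatic spleens was -2.36 (SE 0.28, limma adjusted p = 1.71e-06). In lymph node Cd3e was at 7.55, 8.76 and 9.12 with lymphoma, against 10.39, 11.12 and 12.34 in asymptomatic nodes. FVB/N nodes had 12.41, 10.84 and 11.44. The asymptomatic and FVB/N nodes overlapped, and lymphoma nodes lay below both by a fitted -3.03 and -2.8.

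Cd3g, the gamma chain, showed the largest difference of the 10 genes in spleen and in node. Its levels were 5.47, 6.74 and 8.12 in lymphoma spleens, against 10.71, 11.04 and 11.22 in asymptomatic spleens and 11.04, 11.02 and 11 in FVB/N spleens. The lymphoma spleens were spread over more than 2 log2 units, while each of the other groups was tight. The lymphoma nodes were at 5.77, 7.59 and 8.25, against 9.43, 11 and 11.94 in asymptomatic nodes and 12.11, 10.55 and 11.41 in FVB/N nodes. The spread was again widest with lymphoma (SD 0.99) but the asymptomatic nodes varied nearly as much (SD 0.82), and no lymphoma node reached the lowest of them.

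Cd3d, the delta chain, was at 5.47, 5.9 and 6.63 in lymphoma spleens and 8.6, 9.08 and 9.69 in asymptomatic spleens, with 8.89, 8.87 and 9 in FVB/N spleens. The fitted difference between the transgenic groups was -2.72 (SE 0.24, limma adjusted p = 2.69e-08). The asymptomatic spleens fell apart by batch, with 8.6 to 8.68 in batch A and 9.47 to 9.69 in batch B, whereas Cd3e ran the other way, with 11.53 to 11.59 in batch A and 10.92 to 11.14 in batch B. Both genes differed between lymphoma and asymptomatic spleens within each batch. In node Cd3d was at 5.31, 6.33 and 7.21 with lymphoma, against 7.58, 8.89 and 9.78 in asymptomatic nodes, lower by the fit at -3.38 (SE 0.26, adjusted p = 2.92e-09). FVB/N nodes had 10.22, 8.38 and 9.25, all above the highest lymphoma node.

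Cd247 encodes the zeta chain, which carries most of the complex's phosphorylation motifs and is also used by NK cell receptors. It had the smallest fall of the 10. Levels were 6.15, 6.47 and 6.83 in lymphoma spleens, against 8.23, 8.37 and 8.49 in asymptomatic spleens and 8.5, 8.43 and 8.43 in FVB/N spleens. In node they were 6.19, 6.7 and 7.16 with lymphoma, against 7.57, 8.08 and 9.04 in asymptomatic nodes and 8.92, 7.62 and 8.28 in FVB/N nodes. The groups with and without lymphoma were separate in both tissues.

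The unequal fall of Cd247 and Cd3e was tested within arrays, as the log2 difference Cd247 minus Cd3e. It was -2.34, -1.66 and -0.96 in lymphoma spleens (lowest, median and highest of 6), against -3.32, -2.98 and -2.52 in asymptomatic spleens. All 6 lymphoma spleens were higher than all 6 asymptomatic ones, by 1.25 on average (exact two-sided permutation test over mice, p = 0.00216, the smallest that 6 against 6 allows, adjusted over 12 such tests p = 0.013). In node the values were -2.47, -1.8 and -1.31 with lymphoma and -3.3, -3.03 and -2.77 without, a difference of 1.17 with the same exact p and adjusted p. Against FVB/N mice the difference was 1.28 in spleen and 1.42 in node (exact permutation p = 0.0119, the smallest that 6 against 3 allows, and adjusted p = 0.0357 for each), and these comparisons share the lymphoma arrays. Without any single lymphoma or FVB/N mouse, neither passed the threshold (exact permutation test, adjusted p from 0.0536 to 0.107). The difference stayed at 1.13 to 1.4 in spleen and 1.31 to 1.54 in node. With 1 mouse fewer the smallest p that can be reached is larger, so these failures do not show dependence on any 1 mouse. Between asymptomatic and FVB/N mice the difference in Cd247 minus Cd3e was 0.03 in spleen and 0.25 in node (exact permutation test, adjusted p = 0.905 and 0.265). Within batch A the lymphoma against asymptomatic difference was 1.53 in spleen and 1.38 in node, and within batch B 0.97 and 0.96. With 3 mice against 3, no p below 0.1 can be reached there. Cd3e therefore fell further than Cd247 on the log2 scale. The lymphoma levels of Cd247 are low on this array, and whether a probe set near the lower end of its range follows the transcript was not tested.

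**Figure D2:**
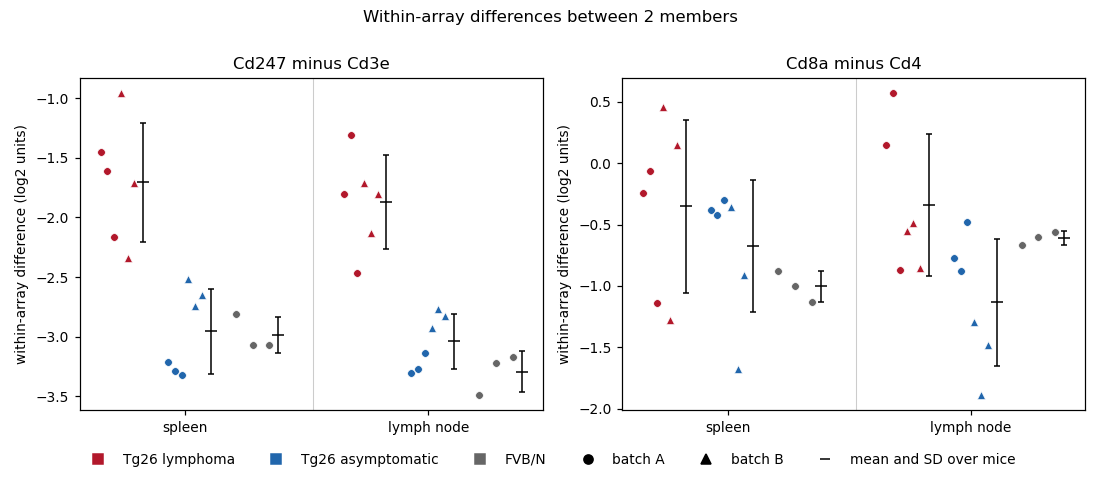
Log2 difference between 2 genes of the same array (vertical axis) for Cd247 minus Cd3e and for Cd8a minus Cd4, by tissue and group, with circles for batch A, triangles for batch B, and the mean and SD over mice. Cd247 minus Cd3e lies higher in every lymphoma array than in any other array of its tissue, while the groups overlap for Cd8a minus Cd4.

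Both coreceptor types fell with lymphoma. Cd4 was at 6.19, 7.14 and 8.37 in lymphoma spleens, against 10.38, 10.54 and 11.19 in asymptomatic spleens and 10.67, 10.69 and 10.76 in FVB/N spleens, and the fitted difference between the transgenic groups was -2.6 (SE 0.32, limma adjusted p = 2.75e-06). In node it was at 6.4, 7.73 and 8.65 with lymphoma, against 10.21, 11.03 and 11.41 without, and the fit gave -3.31 (SE 0.35, adjusted p = 2.18e-07). The FVB/N nodes lay at 11.67, 10.04 and 10.71. Every array with lymphoma was below every array without.

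Cd8a, the alpha chain of CD8, had levels of 6.65, 6.96 and 7.09 in lymphoma spleens, against 9.51, 10.03 and 10.24 in asymptomatic spleens and 9.8, 9.69 and 9.63 in FVB/N spleens. The lymphoma spleens were tightly grouped (SD 0.18), unlike those for Cd4 (SD 0.78). These Cd8a levels lay near the array medians of 6.67 to 6.89. The lymphoma spleen medians of Cd3g, Zap70, Cd247, Cd8b1, Cd3d and Themis were lower still, from 6.74 (Cd3g) down to 5.34 (Themis). Whether spread or size of fall follows the transcript at such levels was not tested. The fitted difference of Cd8a between the transgenic groups was -2.75 in spleen (SE 0.23, limma adjusted p = 1.61e-08). In node Cd8a was at 6.58, 7.35 and 8.16 with lymphoma, against 9.18, 9.64 and 10.64 in asymptomatic nodes and 11, 9.44 and 10.15 in FVB/N nodes, with a fitted difference of -3.01 from asymptomatic nodes.

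Cd8b1, the beta chain that pairs with Cd8a on conventional cytotoxic T cells, followed the same order of groups. It was at 6.09, 6.2 and 6.88 in lymphoma spleens, against 9.15, 9.84 and 10.21 in asymptomatic and 9.56, 9.4 and 9.49 in FVB/N spleens. In node it was at 6.48, 6.8 and 8.18 with lymphoma, against 8.61, 9.29 and 10.71 in asymptomatic and 11.05, 9.11 and 10.01 in FVB/N nodes. The fitted differences from asymptomatic mice were -2.93 in spleen and -3.2 in node (limma adjusted p = 2.93e-08 and 1.94e-08). Cd8a and Cd4 are also made by subsets of dendritic cells, and Cd4 by some macrophages. Of 20 dendritic cell and macrophage genes, 7 were lower in lymphoma than in asymptomatic spleens and 10 in nodes, with none higher. None of the 7 in spleen is a macrophage gene, while the macrophage genes C1qb and Marco were among the 10 in node. The mean over the list ranged from 6.6 to 7.53 in lymphoma spleens and from 8.05 to 8.27 in asymptomatic spleens, and from 6.62 to 7.36 and from 7.45 to 8.62 in the nodes. Log2 array levels have no true 0, and the part of these cells in the coreceptor values was not tested.

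Whether CD8 and CD4 transcripts fell unequally was tested in the same way, as Cd8a minus Cd4 within arrays. In spleen the values were -1.28, -0.15 and 0.46 with lymphoma and -1.68, -0.4 and -0.3 in asymptomatic mice, a difference of 0.32 (exact permutation test, adjusted p = 0.471). In node they were -0.87, -0.52 and 0.57 with lymphoma and -1.89, -1.08 and -0.48 without, a difference of 0.79 (exact permutation p = 0.0411, adjusted p = 0.0987). The groups overlapped in both tissues and neither difference passed the threshold. Without asymptomatic mouse 3 the node difference was 0.92 (exact permutation test, adjusted p = 0.0416). Within batch A the spleen difference was -0.11, the opposite sign. The remaining comparisons, with FVB/N mice as the second group, gave -0.52 to 0.65 with no adjusted p under 0.265.

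The proximal signalling genes fell as well. Zap70, the kinase recruited to phosphorylated CD3 and zeta chains, was at 5.97, 6.49 and 6.88 in lymphoma spleens, against 8.46, 8.66 and 9 in asymptomatic and 9.07, 8.84 and 8.85 in FVB/N spleens. In node it was at 6.03, 6.75 and 6.95 with lymphoma, against 7.63, 8.45 and 9.7 in asymptomatic and 10.11, 8.18 and 8.74 in FVB/N nodes. The groups with and without lymphoma did not overlap. The fitted differences from asymptomatic mice were -1.78 in spleen (SE 0.18, limma adjusted p = 1.85e-07) and -2.51 in node (SE 0.2, adjusted p = 3.12e-09).

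Lat, the membrane adaptor that Zap70 phosphorylates, was at 6.64, 7.22 and 7.49 in lymphoma spleens, against 9.44, 9.78 and 10.11 in asymptomatic and 10.12, 10 and 9.98 in FVB/N spleens. Its lymphoma nodes were at 7.05, 7.47 and 7.92, against 8.65, 9.61 and 10.87 in asymptomatic and 11.28, 9.02 and 10.17 in FVB/N nodes. Lymphoma nodes varied less (SD 0.31) than asymptomatic nodes (SD 0.75) or FVB/N nodes (SD 1.13). The fitted differences from asymptomatic mice were -2.28 in spleen and -2.94 in node (limma adjusted p = 1.26e-07 and 7.81e-09).

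Themis, a T lineage protein needed for selection in the thymus, was at 5.21, 5.34 and 6.22 in lymphoma spleens, against 8.44, 8.58 and 8.69 in asymptomatic and 8.66, 8.75 and 8.83 in FVB/N spleens. In node it was at 5.33, 5.73 and 6.63 with lymphoma, against 7.79, 8.4 and 9.42 in asymptomatic and 9.76, 8.39 and 8.85 in FVB/N nodes. The fitted differences from asymptomatic mice were -2.72 in spleen (SE 0.21, limma adjusted p = 6.46e-09) and -3.23 in node (SE 0.24, adjusted p = 1.75e-09), the smallest adjusted p of the 10 genes in each tissue.

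The fit includes 6 surrogate variables, which stand for unlabelled variation between arrays, and fitted and measured differences were not alike in size. The differences of the group means ran from -4.13 to -1.89 in spleen (median -3.12) and from -3.57 to -1.49 in node (median -2.51), so that the fall was larger in spleen by means and larger in node by the fit. In node within batch B alone, 6 genes had differences smaller than the full fit by more than 1.5 times, all still called. They were -1.94 for Cd3d, -1.2 for Cd247, -1.86 for Cd8b1, -1.53 for Zap70, -1.52 for Lat and -2.07 for Themis. Every asymptomatic node of batch B is among the 7 nodes with transcripts of neighbouring tissues. Batch and neighbouring tissue therefore cannot be told apart in these smaller values. Without lymphoma mouse 4 all 10 genes were called in both tissues, with fitted differences of -3.6 to -1.71 in spleen and -4.27 to -2.03 in node. Without the 7 nodes with transcripts of neighbouring tissues, which leaves 1 asymptomatic and 1 FVB/N node, the node differences were -4.64 to -2.33. All 10 passed in that fit, which assumes that the single asymptomatic node varies like the other groups, so these calls carry no measure of its own spread.

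Whether the fall differed between the tissues was tested as an interaction. None of the 10 genes passed, against 0.572% of all genes, and 2 had an unadjusted p under 0.05 in limma. The fitted interaction lay between -0.73 and -0.26 log2 units (node minus spleen), with adjusted p from 0.188 to 0.845. By group means it was positive for all 10, between 0.15 and 0.96. The order of the tissues in the size of the fall therefore depends on the model, and neither order passed a test.

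**Figure D3:**
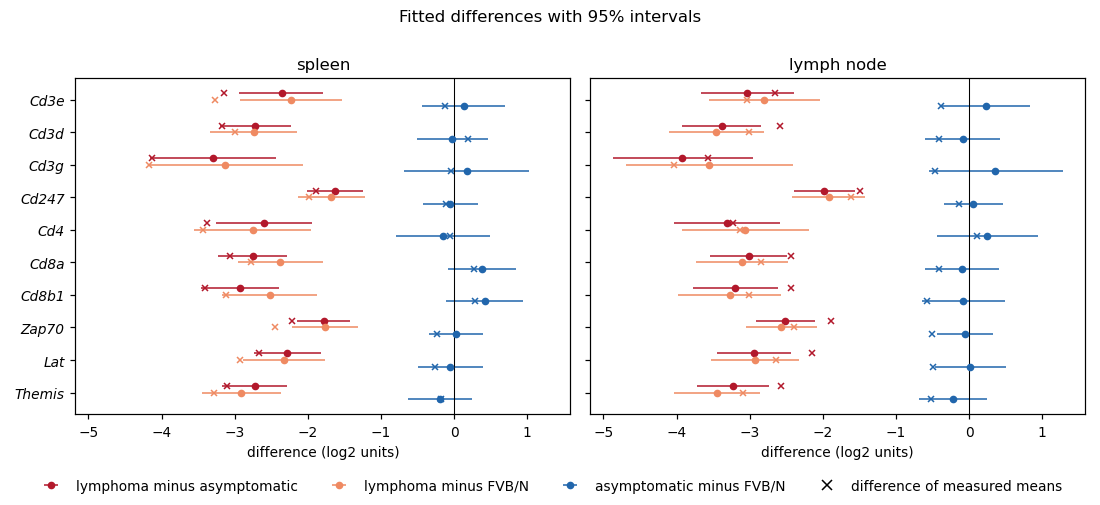
Fitted differences (points) with 95% intervals for each of the 10 genes in spleen (left) and lymph node (right), with crosses for the differences of the measured group means, in log2 units. The fitted points for lymphoma minus asymptomatic and lymphoma minus FVB/N all lie at -1.63 or below, while every interval for asymptomatic minus FVB/N includes 0.

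Against FVB/N mice the same 10 genes were lower with lymphoma in both tissues, and no array overlapped. The fitted differences were -3.13 to -1.68 in spleen (median -2.45, limma adjusted p up to 0.00016) and -3.55 to -1.92 in node (median -3.09, adjusted p up to 6.18e-05). Of all genes, 5.25% were called lower in spleen and 7.98% in node, and 12.5% and 8.25% did not overlap in that direction. Cd3g again had the largest fitted fall in both tissues (8.74-fold and 11.7-fold) and Cd247 the smallest (3.21-fold and 3.79-fold). This comparison uses the same lymphoma arrays as that with asymptomatic mice.

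Between asymptomatic Tg26 and FVB/N mice no difference in the 10 genes passed the test. None was called in spleen, where 0.617% of all genes were, and none in node, where 1.94% were. None had an unadjusted p under 0.05 in limma either. The groups overlapped for all 10 genes in both tissues; of all genes, 4.04% lay apart as lower and 3.99% as higher in spleen, and 1.26% each way in node. The fitted differences were -0.19 (Themis) to 0.42 (Cd8b1) in spleen and -0.22 (Themis) to 0.36 (Cd3g) in node. By group means the differences were -0.26 to 0.28 in spleen (median -0.08) and -0.58 to 0.11 in node (median -0.44). Only Cd4 was higher in asymptomatic nodes by means, and with no surrogate variables none was called. For Zap70 in node the difference of means was -0.51, outside the fitted 95% interval of -0.44 to 0.33. The same held in node for Cd3e (-0.39, interval -0.37 to 0.84) and Lat (-0.49, interval -0.47 to 0.5). The intervals show how large a difference could still be present within the fit alone. For Cd3e in spleen the 95% interval ran from -0.44 to 0.69, for Cd4 from -0.8 to 0.49, for Cd8a from -0.09 to 0.85, and for Cd3g from -0.68 to 1.02. In node the interval for Cd3g, the widest of both tissues, was -0.55 to 1.28, that for Cd4 was -0.44 to 0.94 and that for Cd8a -0.6 to 0.41. Falls of the size seen with lymphoma lie outside all of these intervals.

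In order of level, the lymphoma spleens and lymphoma nodes were the lowest groups for all 10 genes. Neighbours within that order did not separate: neither the 2 lymphoma tissues, nor asymptomatic and FVB/N arrays of a tissue, nor node and spleen of asymptomatic or FVB/N mice were free of overlap for any of the 10 genes. Of all genes, the share apart between node and spleen was 0.0351% lower and 0.0702% higher in lymphoma mice, 1.75% and 4.18% in asymptomatic mice, and 18% and 9.44% in FVB/N mice.

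Node was compared with spleen within each state. In lymphoma mice none of the 10 genes was called (0.0552% of all genes were, and 6 of the 10 had an unadjusted p under 0.05 in limma). In asymptomatic mice 7 were called higher in node (Cd3e, Cd3d, Cd4, Cd8b1, Zap70, Lat and Themis), beside 3.36% of all genes, and in FVB/N mice 6 were (Cd3d, Cd8a, Cd8b1, Zap70, Lat and Themis), beside 2.14%. The 10 fitted differences were 0.58 to 1.29 in asymptomatic and 0.48 to 1.5 in FVB/N mice, but the measured ones were only -0.29 to 0.26 and -0.18 to 0.57, and with no surrogate variables none was called. Without asymptomatic mouse 1 or FVB/N mouse 1 both counts were 0. The asymptomatic count was 1 without FVB/N mouse 2, 3 without asymptomatic mouse 2 or 4, and 4 without asymptomatic mouse 5 or lymphoma mouse 5. The FVB/N count was 0 without FVB/N mouse 3, 2 without FVB/N mouse 2 and 3 without lymphoma mouse 1. The lymphoma count was 2 without lymphoma mouse 4.

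The measured values varied between mice of a group. In the node of asymptomatic mouse 1 all 10 genes were higher than in its own spleen, by a median of 0.74, and in FVB/N mouse 1 all 10 were, by a median of 1.1. These are the 2 mice without lymphoma whose nodes had no list of neighbouring tissue above the limit. In asymptomatic mouse 6, whose node had a pancreas list mean of 13.24, none of the 10 was higher in node, with a median of -0.88. In FVB/N mouse 2, whose node had a salivary list mean of 10.72, none was higher either, with a median of -0.57. Other nodes above the limit lay between. Asymptomatic mouse 4 and FVB/N mouse 3 each had 6 genes higher in node, with medians of 0.07 and 0.1. Asymptomatic mice 2, 3 and 5 had 4, 1 and 1 higher, with medians of -0.2, -0.26 and -0.2. The part of the neighbouring tissue in these differences was not tested. Among lymphoma mice the median ran from -0.21 in mouse 2 to 1.25 in mouse 6, in which all 10 genes were higher in node. Lat and Themis were higher in node than in spleen in all 6 lymphoma mice, and Zap70 in 3 of 6.

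**Figure D4:**
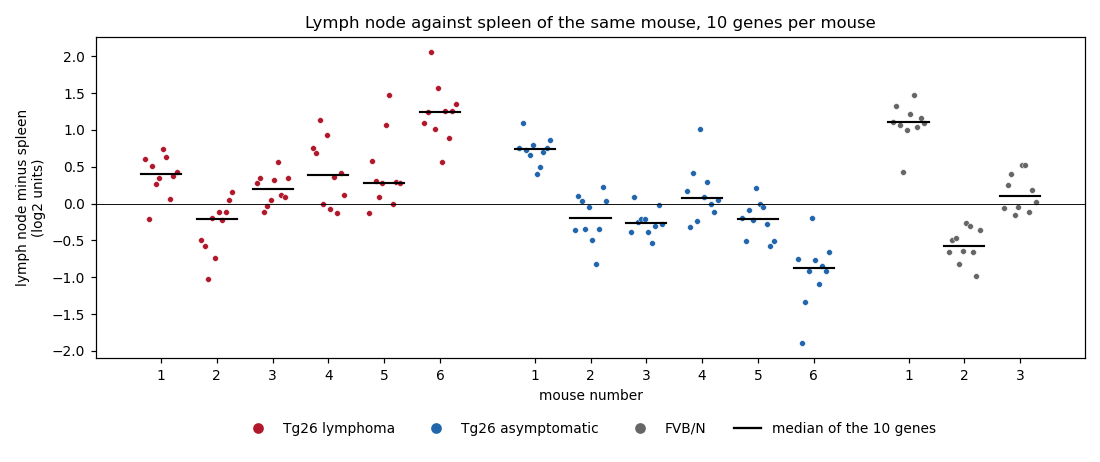
Lymph node minus spleen of the same mouse (vertical axis, log2 units of the deposited levels) for the 10 genes, with 1 column of points per mouse and a line at the median of the 10. Asymptomatic mouse 1 and FVB/N mouse 1 have all points above 0, and asymptomatic mouse 6 and FVB/N mouse 2 have all points below 0.

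The residual level of the 10 genes varied between lymphoma mice. Over the 10 genes, the mean level in spleen ran from 6.12 in mouse 4 to 7.34 in mouse 5, and in node from 6.41 in mouse 2 to 7.76 in mouse 5. In spleen mouse 5 was highest for 8 of the 10 genes and mouse 4 lowest for 7. In node mouse 5 was highest for 5, mouse 4 lowest for 6 and mouse 2 lowest for 4. The asymptomatic mice had mean levels over the 10 genes of 9.62 to 9.86 in spleen, a narrower range than with lymphoma, and of 8.75 to 10.59 in node, a wider one. Across the 30 arrays, the deviation of each gene from its group mean correlated with the mean deviation of the other 9 between r = 0.77 (Cd4) and r = 0.94 (Cd247). The points share arrays and mice, and they include the nodes with neighbouring tissue, so these values are descriptions and say nothing of the lymphoma arrays alone.

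The genes outside the 10 whose deviations followed the mean of the 10 most closely over the 30 arrays were Bcl11b (r = 0.94), a transcription factor of T lineage commitment, and the surface proteins Cd96 (r = 0.93), Cd6 (r = 0.91) and Cd7 (r = 0.908). They were followed by the kinase Txk (0.887), the surface protein Thy1 (0.885), the kinase Tnik (0.884), the costimulatory receptor Cd28 (0.879), the inhibitory receptor Cd5 (0.878) and the phosphatase-like Ubash3a (0.876). The order depended on the arrays used. Over the lymphoma arrays alone, r among these followers ran from 0.773 (Ubash3a) to 0.953 (Cd96), with 0.873 for Bcl11b. Over the other arrays, which include the nodes with neighbouring tissue, it ran from 0.864 (Cd28) to 0.989 (Bcl11b). Bcl11b was at 7.03, 7.3 and 8 in lymphoma spleens, against 9.78, 9.84 and 9.92 in asymptomatic spleens, and at 7.07, 7.54 and 8.21 against 9.12, 9.94 and 10.91 in the nodes. Its groups did not overlap. All 10 of these followers were lower with lymphoma than in asymptomatic mice in both tissues, from -2.75 (Cd96) to -0.81 (Ubash3a) in spleen and from -3.25 (Cd96) to -2.02 (Ubash3a) in node by the fit.

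Other genes of the pathway were lower in part. Of 43 listed signalling partners 39 were measured, and 21 were lower in lymphoma than in asymptomatic spleens and 27 in nodes, with none higher. The median difference of the list was -0.73 in spleen and -1.31 in node by the fit, and -1.34 in spleen and -1 in node by group means, so that the order of the tissues depends on the model. Thy1, a surface protein of T cells, was at 6.06, 6.91 and 7.4 in lymphoma spleens against 9.15, 9.45 and 9.7 in asymptomatic spleens, and it fell by a fitted 2.17 (limma adjusted p = 2.69e-08). Txk, a Tec family kinase, fell by 2.29 in spleen and 2.81 in node, Cd226, an activating receptor shared with NK cells, by 2.08 and 2.75, and Nfatc2, a transcription factor activated by calcium signals, by 1.46 and 2.01. None of the 39 was called between asymptomatic and FVB/N mice in either tissue.

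Of 12 measured T cell transcription factors, 8 were lower in lymphoma than in asymptomatic spleens and 11 in nodes, and Runx1 was higher in both. Bcl11b fell by 2.06 in spleen and 2.95 in node, and Tbx21, which directs type 1 effector cells, by 1.29 in spleen. In node Tox fell by 2.03 and Satb1 by 1.6, both chromatin-binding factors of T cell development. Runx1, which B cells and precursors also use, rose by 0.98 in spleen (limma adjusted p = 0.000471) and 0.93 in node. Of 6 naive T cell and homing genes, 3 were lower in spleen (Ccr7, S1pr1 and Dapl1) and Il7r was higher (1.01 by the fit, limma adjusted p = 0.0610 with no surrogate variables), and 5 were lower in node. Il7r is also on the B cell precursor list.

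Of 8 immature T cell genes, only Rag1 and Rag2, which recombine antigen receptor genes in both lymphocyte lineages, were called higher in lymphoma than in asymptomatic spleens, and none was lower. In node they were higher too, while Ptcra, the pre-T cell receptor chain, and Ccr9, a homing receptor of thymocytes and gut T cells, were lower. Ptcra was lower by the fit only: -0.4 fitted and 0.05 by group means. Rag1 and Rag2 are also on the list of B cell precursor genes, of which 11 of 12 were higher in spleen and 10 of 12 in node, with list means of 9.57 to 10.17 in lymphoma spleens and 6.98 to 7.26 in asymptomatic spleens.

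Cd247 is expressed in NK cells, as is Zap70. Of 13 measured NK cell genes, 7 were lower in lymphoma than in asymptomatic spleens and 6 in nodes, while Klrb1c was higher in spleen by a fitted 0.75, a call that was absent with no surrogate variables (0.3 by group means). The mean over the list ranged from 5.81 to 7.11 in lymphoma spleens and from 7.78 to 7.85 in asymptomatic spleens, and from 5.84 to 6.87 and from 7.17 to 7.39 in nodes. Ncr1, an activating receptor of NK cells, was at 4.59, 5.92 and 6.86 in lymphoma spleens, against 8.28, 8.43 and 8.52 in asymptomatic spleens, and fell by a fitted 2.08 (limma adjusted p = 6.02e-07). The part of NK cells in the values of Cd247 and Zap70 was not tested.

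Of 9 B cell genes, 3 were lower in lymphoma than in asymptomatic spleens (Ms4a1, Cr2 and Fcer2a, all surface proteins of mature B cells) and none was higher. In node the same 3 were lower and 5 were higher (Cd79a, Cd79b, Pax5, Blnk and Cd37). The part of these cells in the values of the 10 genes was not tested. Of the lists for neighbouring tissues, none of 19 salivary and none of 20 pancreas genes was called between lymphoma and asymptomatic spleens, where 4 of 21 adipose and muscle genes were lower and 1 higher. These spleen calls were absent with no surrogate variables: Adipoq was at -1.56 by the fit and -0.06 by group means, and Tnni2, the higher one, at 0.85 and 0.29. In node 3 salivary genes were called higher by the fit alone, Klk1b22 (1.55 fitted, -0.44 by means), Egf (0.89 and -0.14) and Prol1 (1.95 and 0.32). None of the pancreas genes was called there. Of the adipose and muscle genes in node, 11 were lower, also with no surrogate variables, and Tnni2 was higher by the fit alone.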

How the data were processed

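The authors normalized the arrays at probe level by fRMA, a method with frozen reference parameters, according to the design text of the series, and deposited log2 values for each probe set. The build used for probe annotation is not given in the sources used here. Of 35557 probe sets, 1 had no values. Probe sets with 1 symbol in the platform annotation (21789, of which 21698 matched RefSeq, GRCm38.p6) were kept, 1621 had several symbols and 12146 none. The probe set with the highest mean stood for each of 999 genes with more than 1. Signal over background could not be assessed per probe, and the number of mice limits the precision.

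All 30 arrays entered 1 limma 3.58.1 fit in R 4.3.3, with 6 groups and 6 surrogate variables computed in R (5 iterations), after the design text, which names surrogate variables and Benjamini-Hochberg adjustment. A gene was called at an adjusted p under 0.05 over 19938 genes. Differences are from this fit unless means are named. Within-array differences were tested by exact two-sided permutation over mice, adjusted over 12 tests. The fit was also run on simulated data built from its own 6 surrogate variables with independent noise. Such data cannot show whether surrogate variables shift the group differences of the real arrays. The labels give the mouse as the separate sample. The exact permutation p-values compare mice within a tissue. The limma p-values rest on the spread between arrays left after the surrogate variables, with no mouse block in the main fit. That spread can be smaller than the one between mice. For Zap70, asymptomatic against FVB/N nodes, the fitted SE was 0.19, beside SDs over mice of 0.67 and 0.99.

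The 10 genes and the lists were chosen with earlier results of these data known. The named genes were the 10, up to 4 genes per list and tissue with the smallest adjusted p for lymphoma against asymptomatic mice, and the 10 genes most correlated with the 10 over the 30 arrays. Klrb1c, Cd37, Erg, C1qb and Marco were named outside this rule, after their values were seen, to complete a count or a contrast. Spleen and node with the same number in the sample titles were taken as 1 mouse. Their deviations from the group means correlated between -0.01 and 0.68 (median 0.33) over 15 mice. Unmatched pairs were not compared, so these correlations cannot decide whether the pairing is right. The alternatives were batch or neighbouring-tissue lists as covariates, other numbers of surrogate variables, each batch alone, the mouse as a block, quantile normalization, the mean of a gene's probe sets, a filter on dim genes, leaving out 7 nodes, and leaving out each mouse. Figures were drawn with matplotlib 3.10.9.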

Additional observations from a re-analysis of the deposited data

Results flagged for a closer look

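One value of the 10 genes lay apart from its group. Themis was at 6.22 in the spleen of lymphoma mouse 5, and the nearest of the other 5 lymphoma spleens was at 5.45. The gap was 0.761 of the group's whole range, above the 95% critical value for 6 samples. Chance flags about 1 in 20 groups, and 40 were examined. In that spleen 8 of the 10 genes had their highest lymphoma level.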

How the results depend on the processing

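The 10 falls with lymphoma kept their direction and their call under all 27 alternatives run against asymptomatic mice, 1 of which leaves a single asymptomatic node and so says little for node: spleen values ran from -4.31 to -1.5 and node values from -4.64 to -1.2, and the largest limma adjusted p was 0.00962. Against FVB/N mice they also did wherever the alternative could be run, with values from -4.21 to -1.56 in spleen and -4.61 to -1.6 in node. The counts of node over spleen calls did not hold. For asymptomatic mice (7) and FVB/N mice (6) they were 0 with no surrogate variables, with batch as a term, with 3 surrogate variables, with batch plus the means of the 3 neighbouring-tissue lists in the model, in batch A alone, and with the mouse as a replicate block with batch. Batch B alone gave 0 for asymptomatic mice and has no FVB/N mouse. Without the 7 nodes with neighbouring tissue the counts were 1 and 3, and with dim genes left out the FVB/N count was 2. Leaving out 1 mouse at a time gave 0 to 9 for asymptomatic, 0 to 6 for FVB/N and 0 to 2 for lymphoma mice. The replicate block with surrogate variables, which pairs the tissues of a mouse, changed no count (10 in each lymphoma comparison). The cause was not tested.

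Cd247 minus Cd3e, lymphoma against asymptomatic, was 1.53 in spleen and 1.38 in node in batch A and 0.97 and 0.96 in batch B, where 3 mice against 3 cannot pass. Against FVB/N it was 1.24 and 1.43 in batch A. Without the 7 nodes it was 1.43 against asymptomatic nodes and 1.62 against FVB/N nodes, with 1 array each, and 1.28 against FVB/N spleens, where only the adjustment changed. Leaving out 1 mouse gave 1.13 to 1.4 against FVB/N in spleen and 1.31 to 1.54 in node. For asymptomatic against FVB/N spleens the sign turned, with -0.29 in batch A, -0.07 after quantile normalization, and -0.06 to 0.11 without 1 mouse. Cd8a minus Cd4, lymphoma against asymptomatic, was -0.11 in spleen in batch A, and 0.61 to 0.92 in node without 1 mouse. The cause was not tested. Signal over background was not assessed.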
